A study of Homo sapiens with 6 samples.

Results

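The genes described here encode the machinery that brings new proteins into the endoplasmic reticulum (ER). They were 33 genes taken by symbol from the deposited count table of 58051 genes: 6 of the signal recognition particle (SRP), 2 of its receptor, 7 of the Sec61 translocon with its partners, 4 of the translocon-associated protein complex (TRAP), 5 of signal peptidase, 8 of the ER membrane protein complex (EMC), and BCAP31. All 33 matched 1 Ensembl identifier in GENCODE 29, and all 33 passed the filter on low counts. OE33, an established cell line of human oesophageal adenocarcinoma, was profiled by RNA sequencing of polyadenylated RNA. One group was untreated OE33 cells (3 libraries, replicates 1 to 3). The other was OE33 cells given 15 µM APX2009, a small-molecule inhibitor of the redox function of APE1, for 24 h (3 libraries, replicates 1 to 3). The series design calls the 3 replicates of each group independent biological ones. The labels name no vehicle for the controls, so exposure to a solvent and exposure to the compound cannot be told apart.

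Most secreted and membrane proteins enter the ER while they are being made. SRP binds the signal sequence as it leaves the ribosome and docks at the SRP receptor, and the chain then passes into the Sec61 channel. Sec62 and Sec63 serve substrates that enter late or with difficulty, TRAM1 and TRAP assist particular chains at the channel, and signal peptidase cuts the signal sequence off. EMC inserts certain membrane segments that Sec61 handles poorly. When unfolded protein accumulates in the ER, the unfolded protein response raises transcripts of many components of this system through transcription factors such as XBP1 and ATF6.

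The libraries held 21158750 to 26111656 gene counts, and 92 synthetic ERCC spike-in transcripts made up 0.315% to 0.752% of all counts. APX2009 replicate 1 stood apart: it had the lowest spike-in share, and counts at 25015 genes against 21845 to 22446 in the other 5 libraries. All 6 epithelial markers (EPCAM, CDH1, KRT8, KRT18, KRT19, CLDN7) had counts in every library, and their summed level was 24867 to 25559 CPM (counts scaled to library size by TMM) in untreated and 13636 to 17060 CPM in treated libraries. All 6 fibroblast markers and all 6 endothelial markers had at least 1 count in APX2009 replicate 1, at summed levels of 19.2 and 2.25 CPM. In the other libraries 1 or 2 fibroblast markers had counts, summing to 8.35 to 12.7 CPM with COL1A1 the main one, and 1 to 4 endothelial markers, summing to 0.0445 to 0.442 CPM. Of the 6 leukocyte markers 3 to 5 had counts in each library (6.08 to 7.90 CPM), and CD3E was at 0 in all. Every member called below was also called without APX2009 replicate 1. The spike-in share was 0.480% to 0.564% in untreated libraries. In APX2009 replicates 1, 2 and 3 it was 0.315%, 0.752% and 0.734%. A change in cell number and a change in RNA per cell cannot be told apart in bulk RNA.

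Treated cells had higher transcripts for most of this machinery, and the rises were unequal between and within complexes. A gene is said to have risen or fallen when edgeR's quasi-likelihood test, with TMM scaling, gave a Benjamini-Hochberg adjusted p under 0.05 over all 14773 genes tested. By that rule 24 of the 33 genes changed, against 34.7% of all genes tested: 22 rose, against 17.2% of all genes tested, and 2 fell, against 17.4%. Of the 33, 10 rose at least 1.5-fold, against 6.52% of all genes. In 23 of the 33 all 3 treated values lay above all 3 untreated values, against 24.5% of all genes, and in 3 they lay below, against 25%. The median log2 change (APX2009 over untreated) of the 33 was 0.35, and that of all genes tested was 0.02. Summed over the 33 genes, the level went from 3059, 3130 and 3115 CPM in the untreated libraries to 4137, 4211 and 4152 CPM in the treated ones, and the groups did not overlap.

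By complex, the median log2 change was 0.96 for signal peptidase, 0.75 for TRAP, 0.45 for Sec61 with its partners, 0.33 for the SRP receptor, 0.22 for EMC and 0.18 for SRP. Risers were 4 of 5, 4 of 4, 5 of 7, 2 of 2, 4 of 8 and 3 of 6 in that order, and the 2 genes that fell were both of EMC. These medians describe the lists; differences between complexes were not tested. With libraries scaled by the ERCC total instead of TMM, edgeR called 0 of the 33 (lowest adjusted p = 0.295; 7 members at an unadjusted p under 0.05). The loss was not particular to these genes. Of all 14773 genes tested, edgeR with ERCC scaling called 129 higher and 7 lower, and 682 had an unadjusted p under 0.05. DESeq2 and limma voom were not run with ERCC scaling, and without it they called 25 and 24. None of the 24 called members turned direction there, and SEC11C, for example, had a log2 change of 1.46 with that scaling against 1.37 with TMM. The spike-in counts themselves ranged from 82547 to 170437 within the treated group and from 121045 to 128150 within the untreated group.

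**Figure D1:**
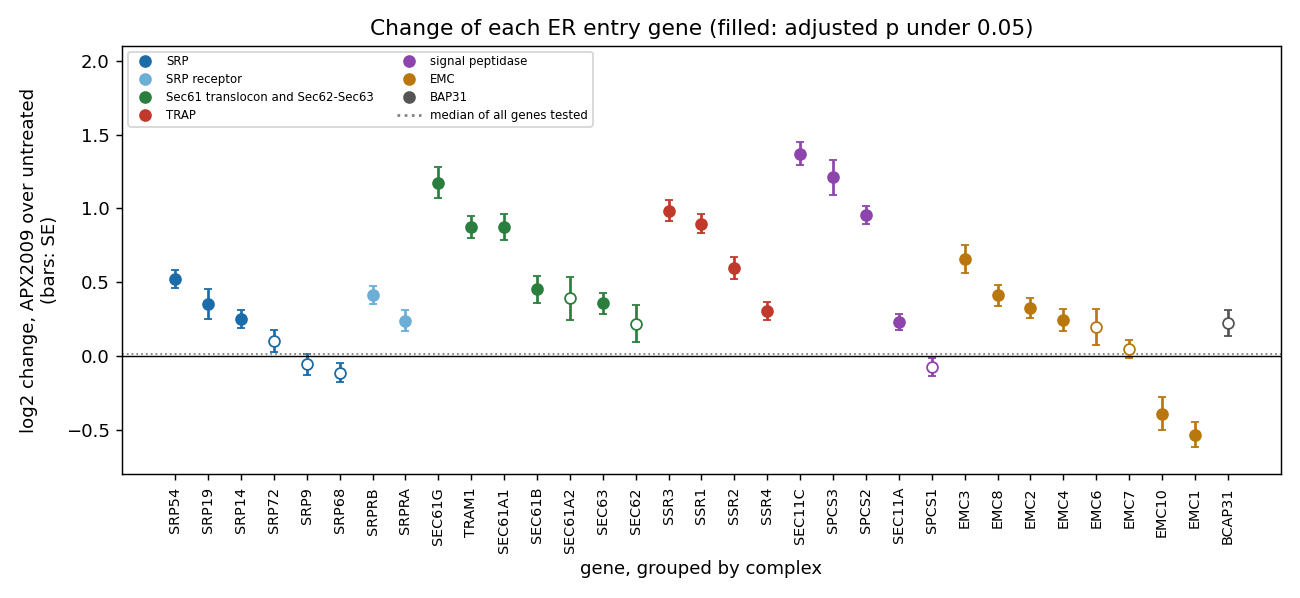
Log2 change (APX2009 over untreated, y axis) with its standard error for each of the 33 genes, grouped and coloured by complex; filled points had an adjusted p under 0.05, and the dotted line is the median of all genes tested. SEC11C (1.37), SPCS3 (1.21) and SEC61G (1.18) are highest, and EMC10 (-0.39) and EMC1 (-0.53) lie below 0.

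The promoters were searched for elements that transcription factors of the unfolded protein response are known to bind, and for a shorter core. The windows ran from 250 bases before to 50 bases after each RefSeq gene start on GRCh38.p14, and 29 of the 33 members had 1 or more windows. The 4 elements, each searched on both strands, were the ER stress response element (ERSE, CCAAT and CCACG with 9 bases between), ERSE-II (ATTGG and CCACG with 1 base between), the core of the unfolded protein response element (TGACGTGG) and the shorter ACGT-containing core GCCACGT. The last overlaps TGACGTGG wherever GCCACGTCA occurs. They were chosen with the expression changes known, and other spellings looked at are not given.

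The 7 letters GCCACGT or their reverse complement stood in a window of 8 of the 29 members: SSR1, SSR3, SSR4, SPCS2, SEC11C, SEC63, SRPRB and SRP19. All 8 were among the 19 risers that had a window, and none was among the other 10 members. Because the letters were chosen with these changes known, that split is a description and cannot test a link. The same letters stood in 27.6% of the 29 members, against 5.66% of tested genes with a window (9.42% of those that rose and 4.83% of the others). Counted by window, they stood in 3.22% of all 35116. TGACGTGG stood in windows of SSR3, SSR4, SRP19 and SEC62, which was 13.8% of the 29 members, against 1.14% of tested genes with a window and 2.54% of those that rose. Counted by window, it stood in 0.729% of all. In SSR3, SSR4 and SRP19 these letters overlapped a GCCACGT match, so both searches found the same sites there. SEC62, which did not pass, held TGACGTGG without GCCACGT. The full ERSE and ERSE-II matched no member's window. They stood in 0.156% and 0.137% of tested genes with a window (0.703% and 0.379% of those that rose). Counted by window, they stood in 0.0769% and 0.0541% of all. Among ER luminal chaperone genes with a window, they stood in 6 and 2 of 16. GCCACGT and TGACGTGG each stood in windows of 1 of those 16 chaperone genes (6.25%), a list in which every gene rose. A match is only a description of letters in a window, and GCCACGT alone does not tell which factor could bind it.

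The stretches that carry the match are shown for the genes of TRAP, signal peptidase, the translocon, SRP and its receptor, so that the shared core can be seen with its flanks. They run 5′ to 3′ on the gene's strand with the 7 matching letters in capitals, hold no base beyond the start site, and are credited to RefSeq. Distances are from the first capital.
SSR1 (chr6:7313319-7313348, minus strand, 138 bases before the start): ggcagcagccgGCCACGTgacttcccggtg
SSR1 (chr6:7313269-7313298, minus strand, 88 bases before the start): cgcgctgagcaGCCACGTcggcggcggtcc
SSR3 (chr3:156555311-156555340, minus strand, 212 bases before a start): gtgggtgggtcACGTGGCttgtcaggaatc
SSR3 (chr3:156554880-156554909, minus strand, 53 bases before a start): gctgggcggggACGTGGCaggacccggcga
SSR3 (chr3:156554149-156554178, minus strand, 42 bases before a start): ttctgataacaGCCACGTcagcaaggaaac
SSR3 (chr3:156554126-156554143, minus strand, 7 bases before a start): tttggggctgcACGTGGC
SSR4 (chrX:153794527-153794556, plus strand, 130 bases before a start): ctcagggagggGCCACGTcagtgctgccag
SPCS2 (chr11:74949136-74949165, plus strand, 119 bases before the start): caagccccgcgGCCACGTcctctgactacc
SEC11C (chr18:59139832-59139861, plus strand, 41 bases before the start): agtcgccggtcACGTGGCcgcaaggacgct
SEC63 (chr6:107958263-107958292, minus strand, 73 bases before the start): ccgttgcgctcGCCACGTctcccttagcga
SRP19 (chr5:112861163-112861192, plus strand, 113 bases before the start): gaagtcttcatGCCACGTcagagactagag
SRPRB (chr3:133805796-133805814, plus strand, 8 bases before the start): cagagtgcaggGCCACGTc

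The SSR1 and SSR3 stretches lie outside GENCODE 29 exons. Those of SSR4, SEC11C and SRPRB lie in annotated exons of the same gene (that of SRPRB also in the antisense gene AC080128.2), that of SRP19 does so for 5 bases, that of SPCS2 lies in an exon of its neighbour XRRA1, and that of SEC63 in an exon of the antisense gene AL024507.2. SSR3 has matches before 3 annotated starts, and these data do not show which start was used. GCCACGT stood in windows of 8 of the 19 risers that had a window, and TGACGTGG in those of 3, all among the 8. Most risers with a window thus held none of the 4 elements. They were SEC61G, SPCS3, SEC61A1, SSR2, SEC61B, SRP14, SRP54, SEC11A, EMC3, EMC4 and EMC8.

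SRP is a ribonucleoprotein, and its proteins fall into 2 working parts. SRP9 and SRP14 form the end that pauses translation, SRP19 helps assemble the other end, SRP54 is the GTPase that binds the signal sequence, and SRP68 and SRP72 form a dimer that holds the particle together. SRP54 (ENSG00000100883, chromosome 14, 34981957 to 35029567) was at 56.5, 56.5 and 58.7 CPM in untreated and 84.0, 78.5 and 84.2 CPM in treated libraries. The treated values were all above the untreated ones, a 1.44-fold rise (log2 change 0.52 ± 0.06 SE; edgeR adjusted p = 1.37e-04). SRP14 rose 1.19-fold, from 105 ± 0.488 to 125 ± 6.12 CPM (SD, n = 3; edgeR adjusted p = 0.00980), and SRP19 1.28-fold, from 18.1 ± 1.04 to 23.1 ± 3.02 CPM (edgeR adjusted p = 0.0248).

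The 2 smaller rises were lost when certain single libraries were left out. SRP14 missed the threshold without untreated replicate 3 (edgeR adjusted p = 0.0506), and SRP19 without untreated replicate 1 (0.0956), untreated replicate 3 (0.0846) or APX2009 replicate 3 (0.0515). SRP68 was at 136, 131 and 134 CPM in untreated and 115, 127 and 128 CPM in treated libraries, all lower without passing. SRP9, SRP68 and SRP72 did not pass, with log2 changes of -0.06 ± 0.07, -0.11 ± 0.06 and 0.10 ± 0.07 (SE; edgeR adjusted p = 0.591, 0.205 and 0.309). SRP9 and SRP14, which form a heterodimer, were at like levels per length in untreated cells (95.7 ± 1.16 and 97.2 ± 0.453 CPM per kilobase, SD, n = 3), and at 92.1 ± 7.95 and 116 ± 5.68 in treated cells.

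The receptor's subunits are SRPRA, a GTPase on the membrane surface, and SRPRB, which anchors it. SRPRB was at 58.0, 56.5 and 59.2 CPM in untreated and 75.4, 79.0 and 77.1 CPM in treated libraries, without overlap (log2 change 0.41 ± 0.06; edgeR adjusted p = 4.51e-04). SRPRA rose less, from 112 ± 2.91 to 132 ± 10.8 CPM (SD, n = 3; log2 change 0.24 ± 0.07; edgeR adjusted p = 0.0261), with 145 CPM in APX2009 replicate 3 and 126 CPM in each of the other two. It missed the threshold without any 1 untreated library (edgeR adjusted p = 0.0526 to 0.106) and without APX2009 replicate 3 (0.0647).

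**Figure D2:**
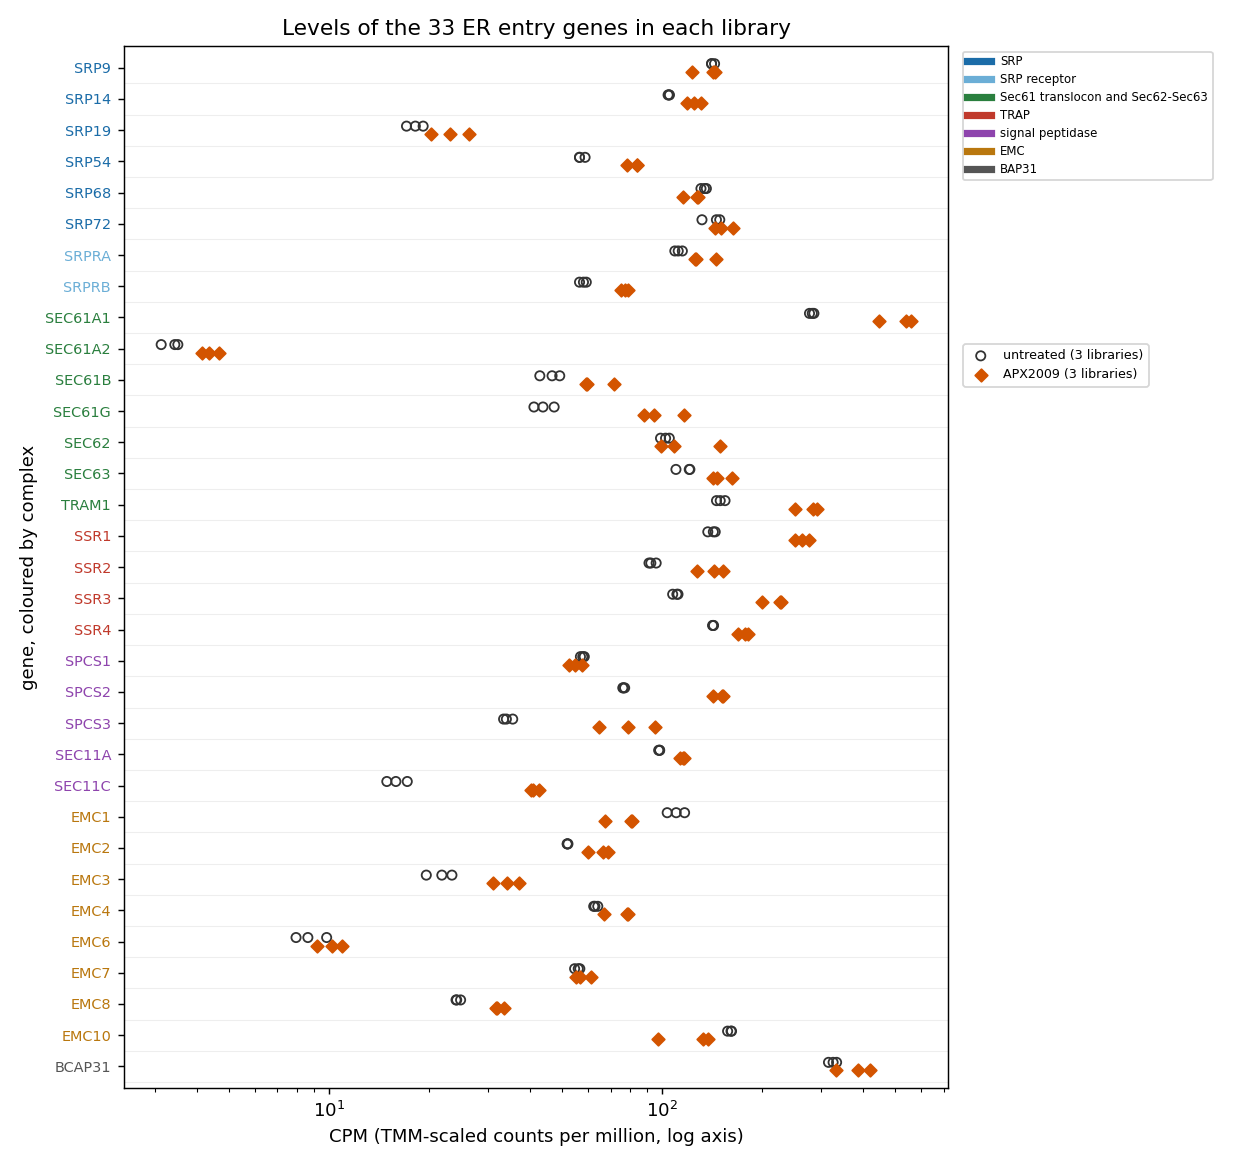
Level of each of the 33 genes in each library (x axis: TMM-scaled CPM, log axis), with open circles for the 3 untreated and diamonds for the 3 APX2009 libraries; gene names are coloured by complex. The 2 groups are apart for all 4 TRAP genes (SSR1 to SSR4), whereas for SPCS1, SRP9, SRP72, SEC62, EMC6, EMC7 and BCAP31 they overlap.

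The Sec61 channel has 3 subunits: a pore-forming alpha subunit encoded by SEC61A1 or its paralogue SEC61A2, beta (SEC61B) and gamma (SEC61G). SEC61A1 (ENSG00000058262, chromosome 3, 128051641 to 128071683) was at 277, 285 and 282 CPM in untreated and 449, 539 and 558 CPM in treated libraries. All treated values were higher, with APX2009 replicate 1 the lowest of them (1.83-fold, log2 change 0.87 ± 0.09; edgeR adjusted p = 5.03e-05). SEC61G (ENSG00000132432, chromosome 7, 54752250 to 54759974) was at 43.9, 41.2 and 47.4 CPM in untreated and 117, 94.2 and 87.9 CPM in treated libraries. Here APX2009 replicate 1 was the highest, and the rise was 2.26-fold (log2 change 1.18 ± 0.10; edgeR adjusted p = 2.52e-05). SEC61B was at 42.9, 46.7 and 49.3 CPM and then 71.5, 59.3 and 58.9 CPM, a 1.37-fold rise (edgeR adjusted p = 0.00321).

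Per length, SEC61A1, SEC61B and SEC61G stood at 77.4 ± 1.19, 84.9 ± 5.85 and 60.3 ± 4.23 CPM per kilobase in untreated cells (SD, n = 3). In treated cells they stood at 142 ± 16.1, 116 ± 13.2 and 136 ± 20.6, so gamma was the lowest of the 3 in each untreated library, while in treated libraries the ranges of the 3 overlapped. SEC61A2 was scarce, at 3.13 to 3.51 CPM in untreated and 4.17 to 4.68 CPM in treated libraries. The groups did not overlap, but the gene did not pass (log2 change 0.39 ± 0.14; edgeR adjusted p = 0.0571). Its exons overlap those of NUDT5 on the other strand, at 44.0 CPM in untreated cells, and without a stated strand setting their reads cannot be told apart.

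As a share of both alpha subunit transcripts per length, SEC61A2 was 2.33%, 2.06% and 2.34% in untreated and 1.96%, 1.53% and 1.41% in treated libraries. The groups were apart, and the exact two-sided permutation test gave p = 0.10, the smallest that 3 against 3 can give.

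SEC63, whose J domain recruits the chaperone BiP to the channel, rose, and SEC62, its partner, did not pass. SEC63 was at 110.0, 121 and 121 CPM in untreated and 162, 146 and 142 CPM in treated libraries, apart from each other (1.28-fold; log2 change 0.36 ± 0.07; edgeR adjusted p = 0.00380). SEC62 was at 98.9 to 105 CPM in untreated and 149, 108 and 99.1 CPM in treated libraries, so only APX2009 replicate 1 lay clear of the controls, and the gene did not pass (log2 change 0.22 ± 0.13; edgeR adjusted p = 0.209). Without that library its log2 change was 0.02 (edgeR adjusted p = 0.805), and with no filter on low counts the gene passed (0.0468). Whether the 2 changes differ was not tested. TRAM1, which contacts chains entering the channel, was at 154, 149 and 146 CPM and then 291, 283 and 249.7 CPM, a 1.83-fold rise without overlap (log2 change 0.87 ± 0.07; edgeR adjusted p = 1.78e-05).

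All 4 TRAP genes rose. Its subunits alpha, beta, gamma and delta (SSR1 to SSR4) sit beside the channel and aid chains with weak signal sequences. SSR3 (ENSG00000114850, chromosome 3, 156540140 to 156555184) was at 112, 108 and 111 CPM in untreated and 228, 226 and 199 CPM in treated libraries, a 1.98-fold rise (log2 change 0.98 ± 0.07; edgeR adjusted p = 6.60e-06). SSR1 was at 137, 142 and 144 CPM and then 275, 263 and 251 CPM (log2 change 0.90 ± 0.06; edgeR adjusted p = 6.81e-06). SSR2 rose 1.51-fold, from 93.2 ± 2.41 to 141 ± 12.2 CPM (SD, n = 3; edgeR adjusted p = 2.22e-04).

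SSR4 rose least of the 4, at 143, 142 and 142 CPM and then 177, 181 and 168 CPM (1.24-fold; log2 change 0.31 ± 0.06; edgeR adjusted p = 0.00321). The 4 calls stood when any 1 library was left out. As a list, the median difference from the untreated mean was 0.71, 0.76 and 0.77 (log2) in APX2009 replicates 1, 2 and 3, against -0.01 to 0.02 in the untreated libraries. SSR4 exons overlap those of IDH3G on the other strand, and IDH3G went from 81.0 to 73.7 CPM without passing (edgeR adjusted p = 0.290).

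Signal peptidase held both the largest rise of the 33 genes and a gene that did not pass. Its catalytic subunit is SEC11A or its paralogue SEC11C, SPCS3 and SPCS2 complete the active complex, and SPCS1 is not needed for cleavage itself. SEC11C (ENSG00000166562, chromosome 18, 59139477 to 59158836) was at 17.2, 15.9 and 14.9 CPM in untreated and 42.8, 40.4 and 40.9 CPM in treated libraries. That was a 2.59-fold rise (log2 change 1.37 ± 0.08; edgeR adjusted p = 1.45e-06), and 1.77% of all genes tested had a larger log2 change. SEC11A was at 97.6, 98.2 and 98.3 CPM and then 115, 116 and 113 CPM, a 1.17-fold rise (edgeR adjusted p = 0.0101) that missed the threshold without untreated replicate 3 (0.0533).

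Per length, SEC11A remained the more abundant of the pair, at 59.2 ± 0.227 against 13.3 ± 0.945 CPM per kilobase in untreated cells (SD, n = 3) and 69.4 ± 0.901 against 34.4 ± 1.05 in treated cells. SEC11C made up 19.5%, 18.2% and 17.3% of the pair in untreated and 33.9%, 32.3% and 33.2% in treated libraries. The treated shares were all higher, by 14.8 percentage points on average, with p = 0.10 in the exact two-sided permutation test, the smallest it can give here.

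**Figure D3:**
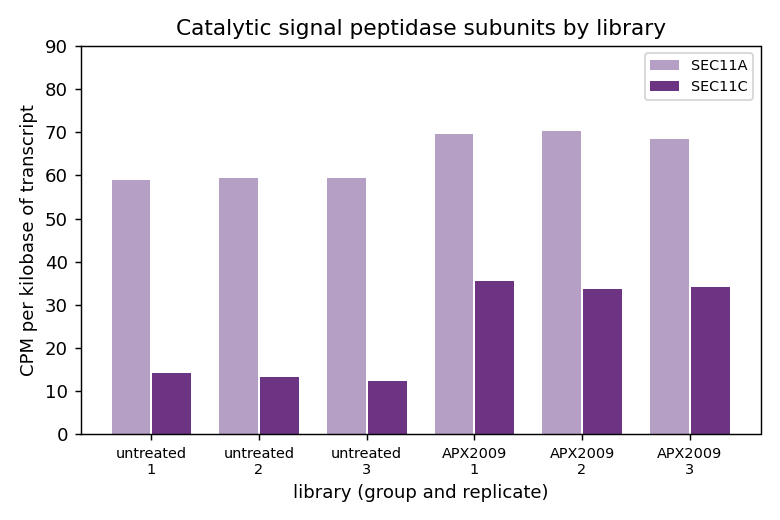
Level of the 2 catalytic signal peptidase subunits in each library (bars, y axis: CPM per kilobase of the longest principal transcript; x axis: the 3 untreated and 3 APX2009 libraries). SEC11C averages 13.3 in untreated and 34.4 in treated libraries, and SEC11A 59.2 and 69.4.

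SPCS2 was at 76.5, 77.2 and 76.2 CPM in untreated and 152, 151 and 143 CPM in treated libraries, a 1.94-fold rise with little spread (log2 change 0.96 ± 0.06; edgeR adjusted p = 2.70e-06). SPCS3 was at 35.6, 34.1 and 33.4 CPM and then 94.9, 78.8 and 64.6 CPM. The treated libraries were far apart from one another but all above the controls (2.32-fold; log2 change 1.21 ± 0.12; edgeR adjusted p = 4.91e-05). SPCS1 was at 56.8, 58.4 and 57.7 CPM in untreated and 54.6, 57.3 and 52.5 CPM in treated libraries. These groups overlapped, and the gene did not pass (log2 change -0.07 ± 0.06; edgeR adjusted p = 0.383). In the annotation 50.7% of SPCS1's exon bases also lie in exons of NEK4 on the other strand, a gene at 29.2 and 32.2 CPM.

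EMC moved in both directions. Of its 8 genes examined as members, 4 rose, 2 fell and 2 did not pass. The risers were 50% of the list, against 17.2% of all genes tested. The falls were 25%, against 17.4% of all genes tested, so 2 falls in 8 genes is near that share. The summed level was 483 to 505 CPM in untreated and 430 to 499 CPM in treated libraries, which overlap. EMC3 and EMC6 belong to the insertase core in the membrane, EMC2 and EMC8 lie on the cytosolic side, EMC1 is the large subunit with a lumenal domain, and EMC4, EMC7 and EMC10 complete the complex.

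EMC3 was at 19.6, 23.4 and 21.8 CPM in untreated and 34.2, 31.0 and 37.1 CPM in treated libraries, the largest rise of the complex (1.58-fold; log2 change 0.66 ± 0.09; edgeR adjusted p = 4.79e-04). The cytosolic subunits EMC2 and EMC8 rose 1.25-fold, from 52.0 ± 0.143 to 65.0 ± 4.65 CPM, and 1.33-fold, from 24.3 ± 0.417 to 32.4 ± 0.934 CPM (SD, n = 3; edgeR adjusted p = 0.00431 and 0.00123). EMC4 rose 1.18-fold, from 63.1 ± 0.912 to 74.7 ± 6.82 CPM (edgeR adjusted p = 0.0285). Its call was lost when any 1 library other than APX2009 replicate 1 was left out (edgeR adjusted p = 0.0664 to 0.0812).

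EMC1 (ENSG00000127463, chromosome 1, 19215664 to 19251552) fell. It was at 104, 117 and 110.2 CPM in untreated and 67.2, 81.1 and 80.6 CPM in treated libraries, all lower (1.45-fold lower; log2 change -0.53 ± 0.08; edgeR adjusted p = 9.32e-04). EMC10 was at 157, 161 and 162 CPM in untreated and 96.9, 132 and 137 CPM in treated libraries, again all lower, with APX2009 replicate 1 well below the other two (log2 change -0.39 ± 0.11; edgeR adjusted p = 0.0232). The EMC10 call was lost without untreated replicate 2 (edgeR adjusted p = 0.0640) or untreated replicate 3 (0.0662). Without APX2009 replicate 1 its log2 change was smaller, at -0.25 (edgeR adjusted p = 0.00172). EMC6 and EMC7 did not pass, with log2 changes of 0.20 ± 0.12 and 0.05 ± 0.06 (edgeR adjusted p = 0.245 and 0.577). EMC6 was at 7.96 to 9.83 CPM in untreated and 9.21 to 10.9 CPM in treated libraries, and P2RX5-TAX1BP3 shares 74.3% of its exon bases on the other strand.

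BCAP31, an ER membrane protein that aids the sorting of membrane proteins, was the most abundant of the 33 genes per length in untreated cells (198 ± 5.56 CPM per kilobase, SD, n = 3). It was at 316, 334 and 326 CPM in untreated and 332, 388 and 420.1 CPM in treated libraries. APX2009 replicate 1 lay within the untreated range, and the gene did not pass (log2 change 0.23 ± 0.09; edgeR adjusted p = 0.0705). It passed without APX2009 replicate 1 (log2 change 0.31; edgeR adjusted p = 6.13e-04) and with DESeq2 (adjusted p = 0.0391).

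Other lists of the same pathway were set beside the complexes by the same counts. Of all genes tested, 17.2% rose and 17.4% fell. Of 25 further genes for targeting and insertion, 6 rose (24%, near that share) and 1 fell (4%), with a median log2 change of -0.01. They included the EMC subunits not among the 33 (MMGT1, EMC9), the multipass translocon, and the tail-anchor route. Those with the smallest p were the signal peptide peptidase gene HM13 (187 ± 10.9 to 269 ± 33.6 CPM, SD, n = 3; edgeR adjusted p = 0.00179), the tail-anchor receptor gene CAMLG (1.27-fold; 0.00203), TMCO1 of the multipass translocon (1.31-fold; 0.00321) and UBL4A of the tail-anchor route (1.30-fold; 0.00584). The gene that fell, named after its value was seen, was WDR83OS of the multipass translocon (log2 change -0.26; edgeR adjusted p = 0.0270). Of 12 genes of oligosaccharyltransferase, which glycosylates chains as they leave the channel, 9 rose, with a median log2 change of 0.52. MAGT1 rose 2.08-fold, OSTC 2.11-fold, STT3B 1.57-fold and RPN1 1.64-fold (edgeR adjusted p = 6.71e-06, 1.48e-05, 2.69e-05 and 2.75e-05).

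Of 12 genes of the COPII coat, which carries cargo out of the ER, 11 rose, with a median log2 change of 0.49. SEC24D rose 2.68-fold, SEC13 2.18-fold, SEC24A 1.69-fold and SEC31A 1.60-fold (edgeR adjusted p = 4.35e-07, 8.00e-06, 2.44e-05 and 3.15e-05). All 17 ER luminal chaperones and cofactors rose, with a median log2 change of 1.73, larger than that of any member. MANF, SDF2L1, CRELD2 and CALR had the smallest p in that list, with log2 changes of 2.81, 2.90, 2.85 and 2.17 (edgeR adjusted p = 4.17e-09 for the first 3 and 2.08e-08 for CALR). With ERCC scaling, 9 of these 17 still passed in edgeR. So did 1 of the 12 oligosaccharyltransferase genes, the scarce TUSC3 (0.176 ± 0.122 to 1.10 ± 0.173 CPM, SD, n = 3), named after its value was seen. Of the COPII genes 0 passed there (2 at an unadjusted p under 0.05), and of the further targeting and insertion genes 0 (also 0 at an unadjusted p under 0.05). In the same libraries 4 of the 6 epithelial markers, named after their values were seen, fell: KRT8, KRT19, KRT18 and CDH1 (log2 changes of -1.08, -0.72, -0.43 and -0.38; edgeR adjusted p = 4.26e-05, 1.85e-04, 0.00172 and 0.00240), and their part in the results was not tested.

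**Figure D4:**
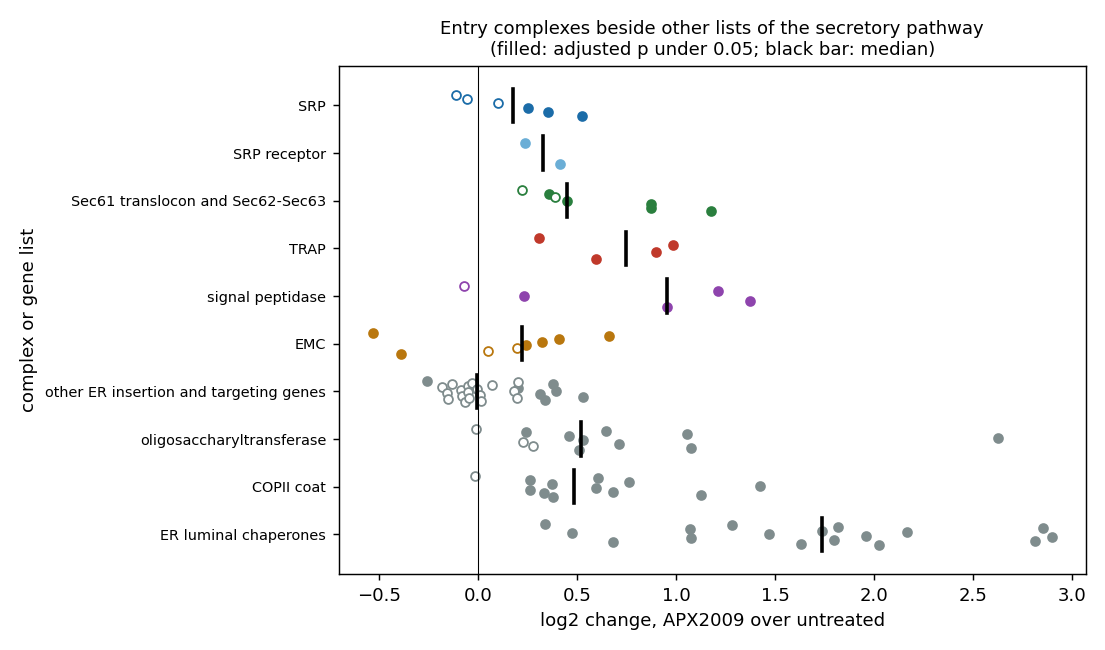
Log2 change (APX2009 over untreated, x axis) of each gene in the entry complexes and in 4 other lists of the secretory pathway (y axis); filled points had an adjusted p under 0.05 and black bars are medians. Medians run from -0.01 for other insertion and targeting genes to 1.73 for ER luminal chaperones, with signal peptidase at 0.96.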

How the data were processed

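RNA was measured in 6 libraries of OE33 cells. The authors deposited raw read counts for Ensembl genes, not normalized. Per the submitters' processing notes, Trimmomatic 0.36, STAR 2.5.2b, featureCounts and Subread 1.5.2 were used on GRCh38; the sources used here do not give the annotation release, strand setting or filters.

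Symbols, coordinates and lengths came from GENCODE 29 (57447 of 58051 IDs matched). Genes were filtered with filterByExpr, scaled by TMM and tested on treatment with edgeR 4.0.16 in R 4.3.3; ERCC rows were left out. Standard errors came from the F statistic. CPM per kilobase divides by the longest APPRIS principal transcript, so it moves with that choice. The step was tested on simulated data. The alternatives used limma 3.58.1 and DESeq2 1.42.0. All 33 members are named, and of each other list the 4 genes with the smallest p. Members, lists and tests were chosen with earlier results of these data known. The samples share replicate numbers but not a stated pairing. Figures were drawn with matplotlib 3.10.9. One overlapping gene is not reported here.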

Additional observations from a re-analysis of the deposited data

How the results depend on the processing

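All 24 called members were also called with RLE, total-count or upper-quartile scaling, both other filters, DESeq2 and limma voom, and none turned direction under any alternative. Risers numbered 22 to 23 across these, against 2352 to 2781 of all genes tested under each. When 1 library was left out, members that rose numbered 17 to 23 and members that fell 1 to 2. Of all genes tested, 1708 to 2839 then rose and 1795 to 2870 fell. At an adjusted p under 0.01, 18 members rose and 1 fell, and of all 14773 genes tested 1470 rose and 1587 fell. In edgeR's test against a 1.5-fold change 8 rose and 0 fell (0 falls at an unadjusted p under 0.05). Of all genes tested, 351 rose and 255 fell in that test. With ERCC scaling edgeR gave 0 rises and 0 falls (7 rises and 0 falls at an unadjusted p under 0.05). Over all 14773 genes tested, that scaling gave 129 rises and 7 falls. Median log2 changes were then 0.25 for EMC, 0.28 for SRP, 0.58 for Sec61 with its partners, 0.81 for TRAP and 1.04 for signal peptidase. That of all genes tested was 0.08. The cause of the lost calls was not tested. The settings for the other lists and the union exon length were chosen after seeing the data.

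With the replicate number as a block, 23 members rose and 2 fell, BCAP31 being the gain. Of all genes tested, 2757 rose and 2744 fell with that block. Deviations of same-numbered libraries correlated at 0.140, 0.0782 and 0.0060 across genes, so the numbers were not taken as a pairing.

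Without division by length, the SEC11C share rose by 12.4 percentage points and the SEC61A2 share fell by 0.323. With union exon length the SEC61A2 share fell by 0.386. Leaving out 1 library, the difference in SEC61A2 share ran from -0.774 to -0.499 percentage points. The number of libraries, 3 per group, limits the precision of every value, and SEC61A2 was the member with the lowest level.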
